A study of Mus musculus with 9 samples.

Results

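Lysosomal hydrolases and lysosomal membrane proteins were read as 33 genes across mouse mammary tumors with and without the stress chaperone HSP72. The genes were chosen by name from a fixed list of proteases, glycosidases, lipid hydrolases, cofactors, membrane proteins, proton pump subunits and the regulator Tfeb. All 33 were matched to 1 row each among the 55403 gene rows of the count table. RNA sequencing covered 9 tumors of female MMTV-PyMT mice, in which a mammary tumor virus promoter, active mainly in mammary epithelium, drives the polyoma middle T oncogene. All animals also carried the human MUC1 transgene (MUC1.Tg) on a C57BL/6 background. The WT group (Hspa1a/Hspa1b+/+) had 4 tumors from animals aged 122 to 132 days, and the KO group (Hspa1a/Hspa1b-/-) had 5 from animals aged 120 to 125 days. Whether each tumor came from a different animal is not in the labels, so a p-value here reflects only how these 9 samples vary. Every tumor was dissociated with collagenase and trypsin before RNA was extracted, so dissociation is shared by both groups.

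Lysosomes are the acidic organelles in which proteins, glycans and lipids taken up by endocytosis or delivered by autophagy are broken down. Soluble hydrolases reach them mostly by mannose 6-phosphate receptors, a proton pump (the V-ATPase) acidifies the lumen, and heavily glycosylated membrane proteins line the limiting membrane. Many of the genes carry E-box elements in their promoters that are bound by TFEB and its relatives, and macrophages are known for high levels of several lysosomal proteases. Tumors hold cancer cells, macrophages and stroma together, and in such bulk samples fewer cells of a type and less RNA per cell cannot be told apart.

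The E-box elements were looked up first, because shared elements are what is best known of the control of these genes. RefSeq promoter windows (GRCm38.p6), each running from 250 bases before to 50 bases after a start, were found for 29 of the 33 genes, 35 windows in all. The core CACGTG, searched on both strands, lay in 11 of the 35 windows and in 7.15% of all 32851 windows of that length. The longer GTCACGTG, which contains that core, lay in 9 of the 35 and in 2.25% of all. The following runs show GTCACGTG or its reverse complement in capitals, each 5′ to 3′ on the strand of the gene, for 6 members of differing function.
Lamp1, chr8:13159122-13159151, plus strand: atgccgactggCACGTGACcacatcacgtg
Ctsd, chr7:142387907-142387936, minus strand: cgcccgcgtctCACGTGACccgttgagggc
Glb1, chr9:114401017-114401046, plus strand: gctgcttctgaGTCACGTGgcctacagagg
Lgmn, chr12:102439125-102439154, minus strand: atggaatgtctGTCACGTGgtccattttat
Mcoln1, chr8:3500435-3500464, plus strand: gggtcgcgcttGTCACGTGttcagttcagg
Cln3, chr7:126583341-126583370, minus strand: tcacgggtactGTCACGTGacccccaacct

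The element shown began 28 bases before the start in Lamp1, 98 in Ctsd and 50 in Glb1. It began 51 bases before in Lgmn, 73 in Mcoln1 and 123 in Cln3. Further matches began 245 bases before the start in Ctsd and 45 in Mcoln1. In Cln3 a match on the other strand, overlapping the one shown, began 121 bases before. Atp6v0d1, Ctsa and Gla also held GTCACGTG. The windows of Psap, Lipa, Npc2 and Ctss held none, which says only that these letters are not in those windows. GAGGAAGT, a sequence of the kind bound by the macrophage factor PU.1, was searched on both strands as well. It lay in 4 of the 35 windows, those of Ctss, Ctsc, Gusb and Gla, and in 3.20% of all. Of other genes with a promoter entry, it lay in 1 of 9 macrophage markers and 0 of 12 further V-ATPase subunits. It lay in 0 of 23 further hydrolases and 0 of 23 further membrane proteins. In Ctss it began 2 bases before the start. The Ctss run is shown because Ctss is the member with the largest difference among the cysteine proteases, with the reverse complement of GAGGAAGT in capitals.
Ctss, chr3:95526773-95526802, plus strand: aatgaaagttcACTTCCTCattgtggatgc

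Before the comparison, library WT 1 has to be set apart. Sequencing depth ran from 11500920 to 19136317 fragments, with 4410399 to 6221181 of them on genes, and WT 1 was lowest in both. The members were counted at 12 fragments or more in every library. The targeted genes followed the labels, with Hspa1b at 28.8 to 81.1 CPM (counts scaled to a common library size) in the WT libraries and at most 0.657 CPM in the KO libraries. Hspa1a, a near-identical copy whose reads cannot all be told from those of Hspa1b, stood at 3.99 to 9.77 CPM in WT and at most 1.64 CPM in KO. Markers of epithelium (8 genes, keratins included) summed to 3254 to 6498 CPM.

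WT 1 had the highest level of the 9 libraries for 27 of the 33 members, against 19.5% of the 14665 genes tested. It was the lowest library for 0 members, but for 21.4% of all genes tested, so it was often extreme in both directions. KO 3 came next, highest for 18.6% and lowest for 16.5% of all genes tested. Its level relative to the mean of the other WT libraries had a median of 1.92 over the members and 0.975 over all genes tested. This ratio exceeded 1.5 in 24 of the 33 members and in 16.8% of all genes tested. Summed over the 33 members, CPM reached 8777 in WT 1, 4261 in WT 2, 4499 in WT 3 and 5229 in WT 4. The KO libraries gave 4120, 3766, 4201, 3582 and 4542 CPM from KO 1 to KO 5. The sum in WT 1 was thus far above the rest, while WT 2 and WT 3 lay among or just beside the KO libraries. The members' differences are therefore given with and without WT 1. Because WT 1 was singled out by the levels of these same members, smaller negative differences without it follow from that choice.

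**Figure D1:**
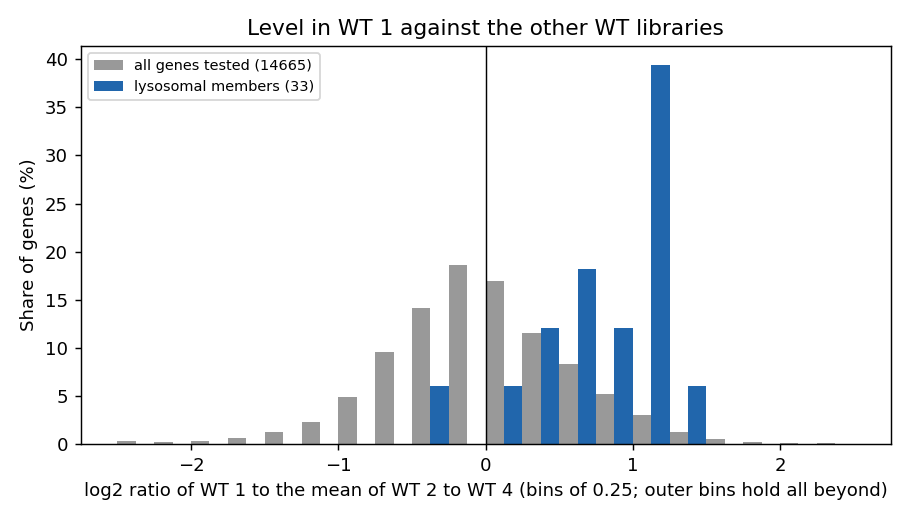
Horizontal axis, log2 ratio of the level in WT 1 to the mean of WT 2 to WT 4 in bins of 0.25; vertical axis, share of genes in percent, grey for the 14665 genes tested and blue for the 33 lysosomal members. All genes centre near 0, whereas most members lie to the right of 0.5.

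None of the 33 members passed the test between genotypes, and their fold changes were mostly negative. The quasi-likelihood test of edgeR, adjusted by Benjamini and Hochberg's method over 14665 genes, called 0 of 33 members at an adjusted p under 0.05, against 0.0886% of all genes tested, and the smallest adjusted p among the members was 0.539. DESeq2 called 0 of 33, against 0.358% of its genes, and limma-voom with sample weights also called 0, against 0.130% of its genes. The log2 fold change of KO against WT was negative in 30 of 33 members, against 50.0% of all genes tested. Its median over the members was -0.42, and over all genes tested -7.8e-05. At an unadjusted p under 0.05, 10 of 33 members were lower in KO, against 4.59% of all genes tested, and 0 were higher, against 3.36%. No member had groups that did not overlap. Every KO library lay below every WT library for 1.26% of all genes tested and above for 1.44%. At shares that small, few or none would be met among 33 genes.

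These counts rested in part on single libraries. Without WT 1, 26 of 33 members were negative, against 50.4% of all genes, the median was -0.14, and 3 members (Lipa, Npc2 and Ctss) were lower at an unadjusted p under 0.05, against 3.33% of all genes. The number lower was 18 without WT 2 (4.94% of all genes), 5 without KO 2 (3.11%) and 4 without KO 4 (3.57%). With age as a covariate it was 25, against 7.92% of all genes, and the median was -0.69; only WT 2, at 132 days, came from an animal older than 125 days. Neither of the fits without WT 1 or with age called a member, against 0.0874% and 0.0682% of all genes.

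**Figure D2:**
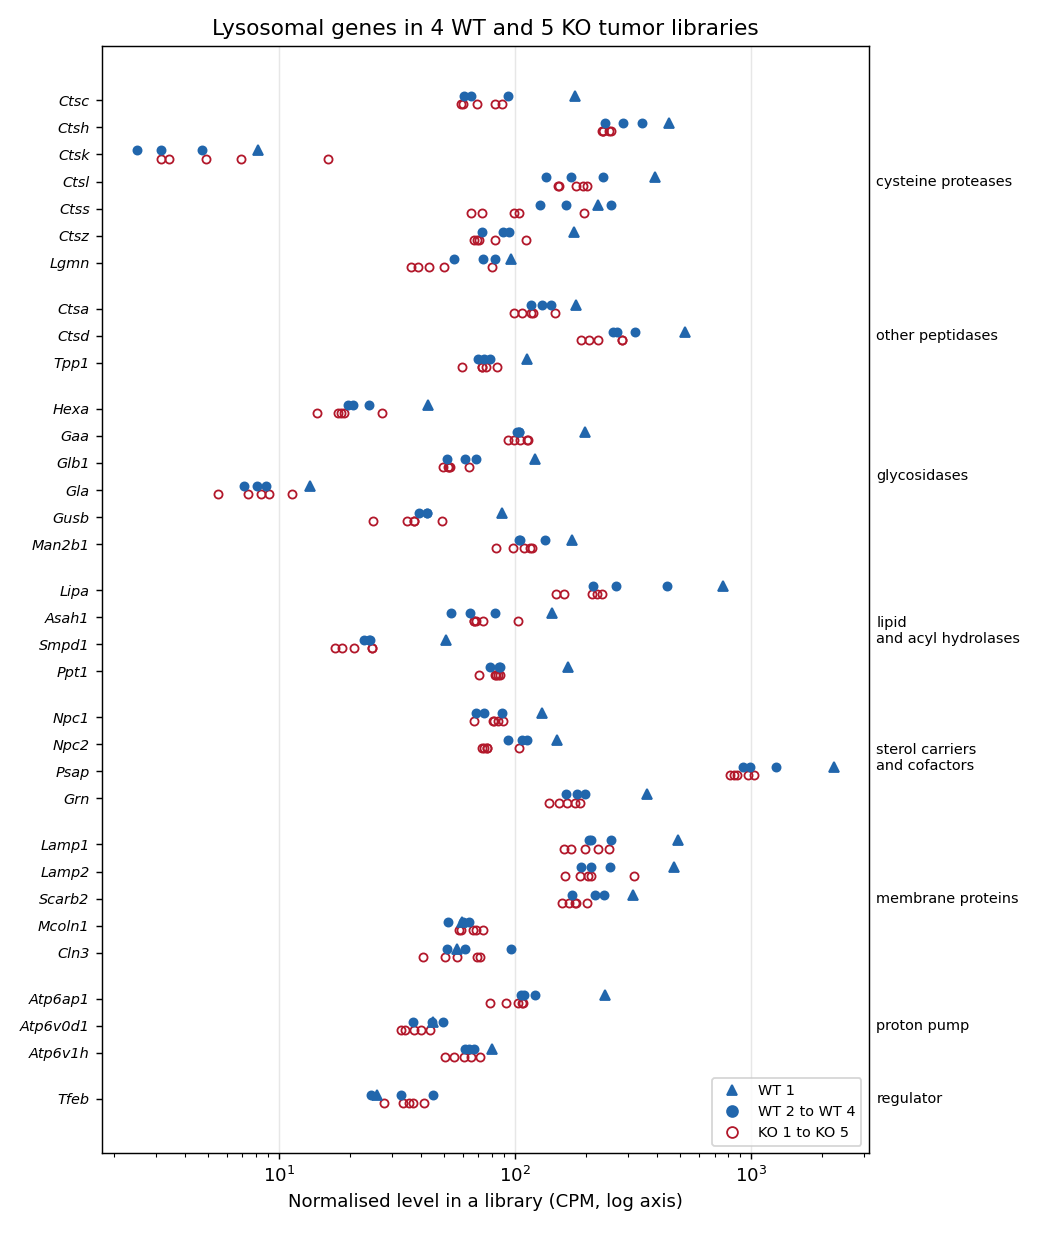
Horizontal axis, normalised level in CPM on a log scale; rows, the 33 lysosomal genes by role; blue triangle, WT 1; blue dots, WT 2 to WT 4; open red circles, KO 1 to KO 5. WT 1 stands to the right of all other libraries in 27 rows, and the groups overlap in every row.

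The cysteine proteases, which cleave proteins in the lysosome and partly outside it, held 3 of the 10 members with an unadjusted p under 0.05. Ctss encodes cathepsin S, which trims the invariant chain in antigen-presenting cells. It stood at 225, 165, 128 and 254 CPM in WT 1 to WT 4 and at 99.3, 104, 64.9, 72.8 and 197 CPM in KO 1 to KO 5. WT 4 was the highest library and KO 5 the only KO library within the WT range. On the log2 scale KO minus WT was -0.84 ± 0.31 for Ctss (SE; edgeR adjusted p = 0.616), and -0.76 without WT 1.

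Lgmn encodes legumain, an asparaginyl endopeptidase that also matures cathepsins. Its levels were 96.3, 73.4, 55.3 and 82.1 CPM in WT 1 to WT 4 and 49.8, 43.2, 36.1, 38.6 and 80.0 CPM in KO 1 to KO 5. As with Ctss, KO 5 lay within the WT range and the other KO libraries lay below it. Lgmn had a fold change on the log2 scale of -0.63 ± 0.24 (SE; edgeR adjusted p = 0.616), and -0.50 without WT 1. Ctsh, the aminopeptidase cathepsin H, stood at 449, 241, 287 and 344 CPM in WT and at 254, 249, 234, 237 and 235 CPM in KO. The KO libraries were nearly equal (242 ± 9.07 CPM, SD, n = 5), while the WT libraries were spread (330 ± 89.7 CPM, SD, n = 4), and 2 KO libraries exceeded WT 2. For Ctsh the log2 fold change came to -0.45 ± 0.17 (SE; edgeR adjusted p = 0.616), and -0.26 without WT 1.

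The other cysteine proteases depended more on WT 1. Ctsc (cathepsin C, which activates granule serine proteases), Ctsl (cathepsin L) and Ctsz (cathepsin Z, a carboxypeptidase) had log2 fold changes of -0.47, -0.40 and -0.44 with all libraries and of -0.028, -0.037 and -0.089 without WT 1. Ctsk, the collagen-degrading cathepsin K known from osteoclasts and also made by fibroblasts, was among the 3 members with a positive fold change. It stood at 8.14, 2.51, 3.16 and 4.70 CPM in WT and at 3.15, 4.89, 6.90, 16.1 and 3.42 CPM in KO, and the groups overlapped throughout. KO 4 was the highest library, and without it the log2 fold change of Ctsk was 0.00062, against 0.59 ± 0.52 (SE) with all libraries and 1.00 without WT 1. Ctsk and Ctss are neighbours on chromosome 3 (95499256 to 95509362 and 95526786 to 95556403, GRCm38), yet their highest libraries differed.

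The remaining peptidases were led by Ctsd, the aspartyl protease cathepsin D. Ctsd stood at 525, 260, 321 and 270 CPM in WT 1 to WT 4 and at 224, 205, 284, 190 and 284 CPM in KO 1 to KO 5. WT 1 was far above all others, and KO 3 and KO 5 lay within the range of the other WT libraries. The Ctsd difference of -0.53 ± 0.22 in log2 (SE; edgeR adjusted p = 0.616) was -0.26 without WT 1. In the reference annotation 34.4% of the Ctsd exon bases are shared with the gene model Gm49369 on the same strand, so its level is uncertain, as are those of Ctsl (26.8%), Ctsa (17.4%) and Hexa (12.8%), whose exons share bases with other gene models. Ctsa, the carboxypeptidase cathepsin A that also protects beta-galactosidase and neuraminidase, had a log2 fold change of -0.27 (-0.14 without WT 1). Tpp1, a tripeptidyl peptidase, stood at -0.20 and at -0.023 without WT 1.

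All 6 glycosidases had negative log2 fold changes, between -0.53 and -0.16, and 4 of the 6 stayed negative without WT 1. Glb1, the beta-galactosidase often used as a senescence stain, was the member of this role with the smallest p. It stood at 122, 51.6, 61.3 and 68.5 CPM in WT and at 51.8, 49.4, 63.5, 52.9 and 52.7 CPM in KO. Apart from WT 1, the libraries of both genotypes lay between 49.4 and 68.5 CPM. For Glb1 the log2 fold change came to -0.48 ± 0.22 (SE; edgeR adjusted p = 0.627), and -0.16 without WT 1.

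Gusb (beta-glucuronidase) and Hexa (the alpha subunit of beta-hexosaminidase) had log2 fold changes of -0.53 and -0.47, and of -0.17 and -0.15 without WT 1. Man2b1 (alpha-mannosidase), Gaa (acid alpha-glucosidase, which degrades glycogen) and Gla (alpha-galactosidase A) had -0.29, -0.28 and -0.16, and -0.12, 0.018 and 0.059 without WT 1. Of these, Gaa was set apart by 1 library. It stood at 198 CPM in WT 1, at 103, 102 and 104 CPM in WT 2 to WT 4 and at 93.2 to 113 CPM in KO.

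Among the lipid and acyl hydrolases, Lipa had the largest difference of all 33 members. Lipa encodes lysosomal acid lipase, which frees cholesterol and fatty acids from lipoprotein lipids. It stood at 763, 268, 214 and 439 CPM in WT 1 to WT 4 and at 234, 222, 211, 149 and 161 CPM in KO 1 to KO 5. WT 1 and WT 4 were the highest libraries, while WT 2 and WT 3 lay close to KO 1, KO 2 and KO 3. Lipa differed by -1.11 ± 0.32 in log2 (SE; edgeR adjusted p = 0.539; DESeq2 adjusted p = 0.131), -0.65 without WT 1 and -0.30 without WT 1 and WT 4. Lipa kept an unadjusted p under 0.05 in all 9 fits that left out 1 library.

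Smpd1 (acid sphingomyelinase), Ppt1 (palmitoyl-protein thioesterase) and Asah1 (acid ceramidase) had log2 fold changes of -0.52, -0.36 and -0.18. Without WT 1 these were -0.16, -0.035 and 0.19. Outside WT 1 the levels of Smpd1 ran from 17.3 to 24.8 CPM and those of Ppt1 from 70.2 to 86.2 CPM over both genotypes. Asah1 was higher in KO 3 (103 CPM) than in any WT library other than WT 1.

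The sterol carriers and cofactors included the most abundant member. Psap encodes prosaposin, the precursor of the saposins that present sphingolipids to their hydrolases. Psap stood at 2240, 927, 992 and 1269 CPM in WT 1 to WT 4 and at 965, 843, 873, 812 and 1025 CPM in KO 1 to KO 5, and it made up 20.8% to 25.5% of the members' summed CPM in each library. KO 1 and KO 5 lay within the range of the WT libraries other than WT 1. The Psap difference of -0.59 ± 0.24 in log2 (SE; edgeR adjusted p = 0.616) was -0.23 without WT 1.

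Npc2, the soluble carrier that hands cholesterol to the membrane protein Npc1, stood at 151, 93.4, 108 and 112 CPM in WT and at 76.4, 73.8, 72.6, 76.4 and 103 CPM in KO. All KO libraries except KO 5 lay below every WT library. Npc2 differed by -0.53 ± 0.16 in log2 (SE; edgeR adjusted p = 0.609) and -0.37 without WT 1, and like Lipa it kept an unadjusted p under 0.05 in all 9 fits that left out 1 library. Npc1 itself was at -0.16, and at 0.065 without WT 1, and whether the pair differ from each other was not tested. Grn, which encodes progranulin, had -0.45 with all libraries and -0.13 without WT 1.

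Membrane proteins varied in how closely they followed the hydrolases. Scarb2, the receptor that carries glucocerebrosidase to lysosomes, stood at 317, 239, 219 and 174 CPM in WT and at 180, 181, 202, 158 and 169 CPM in KO. WT 4 was the lowest WT library here, below 3 of the KO libraries, the reverse of its place in Ctss and Lipa. Scarb2 differed by -0.42 ± 0.16 in log2 (SE; edgeR adjusted p = 0.616), and by -0.24 without WT 1. When WT 1 and WT 4 were both left out, 1 of the 33 members was lower at an unadjusted p under 0.05, Scarb2 (-0.37). That count is close to the share of all genes (3.32%), and only WT 2 and WT 3 remained in the WT group.

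Lamp1 and Lamp2, the main glycoproteins of the lysosomal membrane, had log2 fold changes of -0.53 and -0.38, and of -0.15 and -0.013 without WT 1. Lamp1 stood at 491 CPM in WT 1 and at 206 to 255 CPM in the other WT libraries, with 161 to 249 CPM in KO. Cln3, a membrane protein mutated in juvenile neuronal ceroid lipofuscinosis, was highest in WT 4 (96.0 CPM) and had -0.20, with -0.27 without WT 1 and 0.021 without WT 4. Mcoln1, the calcium channel TRPML1 that is opened during nutrient stress, had a positive value. It stood at 59.5, 52.0, 60.5 and 64.0 CPM in WT and at 73.1, 57.8, 59.1, 68.1 and 66.3 CPM in KO. Mcoln1 had a fold change of 0.14 ± 0.12 in log2 (SE), also 0.14 without WT 1, and was the member with the smallest relative spread among WT libraries (8.53% of the mean).

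Of the proton pump, Atp6ap1, an accessory subunit needed for its assembly, stood at 240, 122, 109 and 106 CPM in WT and at 103, 91.4, 107, 78.3 and 108 CPM in KO. WT 1 was far above the rest, and KO 3 and KO 5 lay within the range of the other WT libraries. Atp6ap1 differed by -0.56 ± 0.23 in log2 (SE; edgeR adjusted p = 0.616), and by -0.21 without WT 1. Atp6v0d1, a subunit of the membrane sector, and Atp6v1h, a subunit of the catalytic sector, had -0.22 and -0.17, and -0.21 and -0.082 without WT 1.

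Tfeb, the transcription factor of the lysosomal program, did not share the pattern of the hydrolases. Tfeb stood at 26.0, 33.02, 24.4 and 44.8 CPM in WT and at 41.0, 27.9, 37.1, 33.6 and 35.4 CPM in KO. WT 1, the highest library for most members, was the second lowest for Tfeb. KO minus WT was 0.13 ± 0.19 in log2 (SE; edgeR adjusted p = 0.880), 0.043 without WT 1 and between 0.017 and 0.32 when any 1 library was left out. Among members with a promoter entry, the median log2 fold change was -0.27 for the 9 with GTCACGTG in a window and -0.44 for the 20 without. The 9 ran from -0.63 (Lgmn) to 0.14 (Mcoln1). Whether these sets differ, and the part of Tfeb in the members' values, was not tested.

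**Figure D3:**
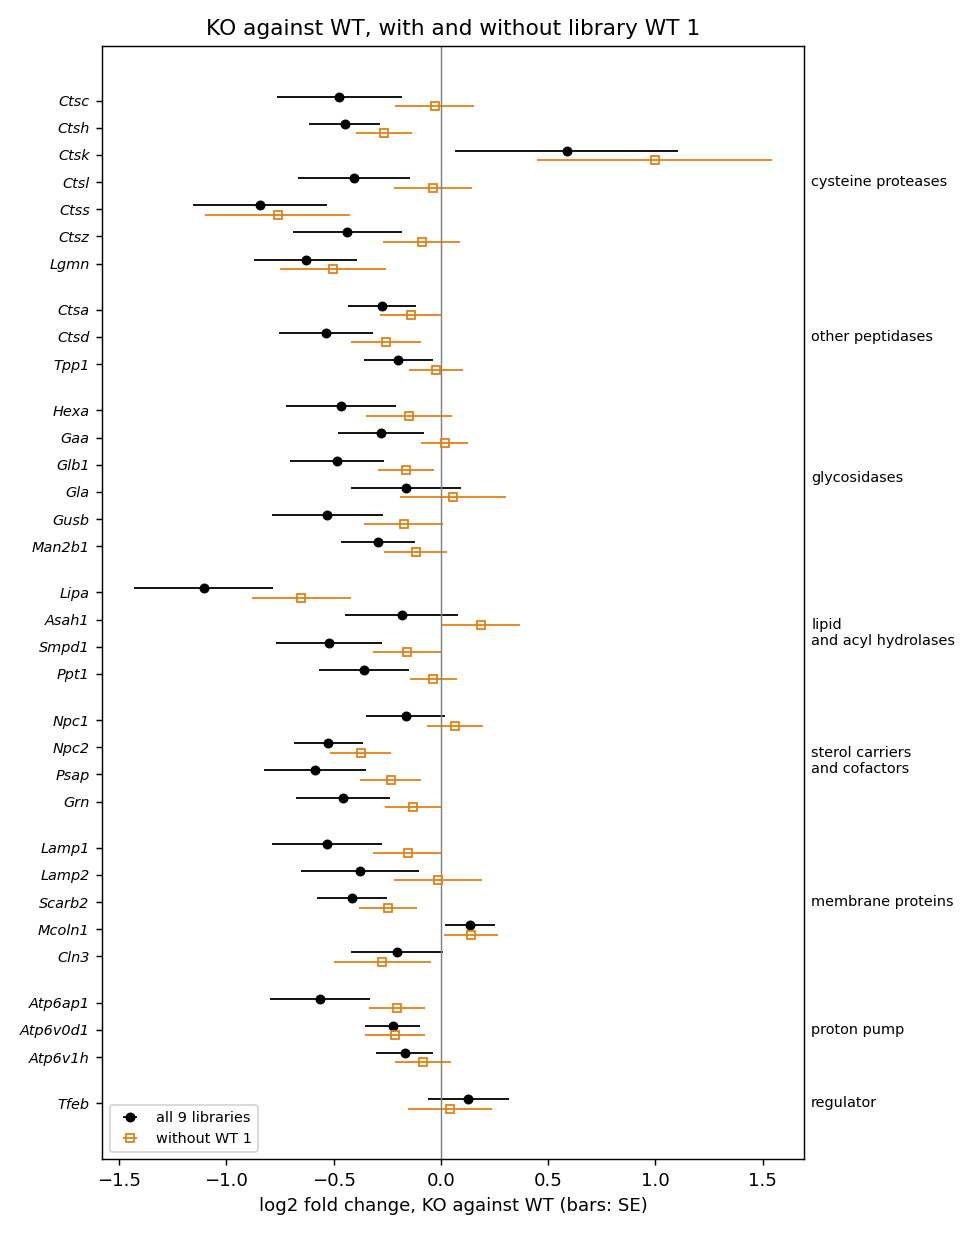
Horizontal axis, log2 fold change of KO against WT with its SE as a bar; rows, the 33 lysosomal genes by role; black dots, all 9 libraries; open orange squares, without WT 1. Most squares lie nearer 0 than their dots, with Lipa, Ctss and Lgmn still at or below -0.50 and Ctsk, Mcoln1 and Tfeb above 0 in both.

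Levels per length gave another order of the members. CPM per kilobase of the longest principal transcript were highest for Psap, at 511 ± 228 in WT (SD, n = 4) and 340 ± 33.4 in KO (SD, n = 5). Ctsh (204 ± 55.5 in WT), Ctsd (162 ± 58.1), Ctss (142 ± 42.3), Lipa (142 ± 83.3) and Lamp1 (130 ± 60.7) followed on this scale. Among these 5, the step from each to the next was within the SD between WT libraries. That SD does not test whether 2 genes differ in level. Lowest were Ctsk, at 3.06 ± 1.66 in WT and 4.55 ± 3.53 in KO, and Gla, at 2.95 ± 0.894 and 2.63 ± 0.672. The per-length level of Ctsl is uncertain, since its principal transcripts run from 1971 to 6168 bases.

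The other genes of the pathway, taken from fixed lists, were also mostly negative, and less so without WT 1. Over all genes tested, 4.59% were lower and 3.36% higher at an unadjusted p under 0.05. Of 34 further hydrolases, 30 had negative log2 fold changes (median -0.31, or -0.082 without WT 1); 6 were lower and 0 higher at an unadjusted p under 0.05, and edgeR and DESeq2 called 0. Gm2a, the activator that presents GM2 ganglioside to Hexa, had -1.07 ± 0.28 (SE; edgeR adjusted p = 0.470) and -0.75 without WT 1. Acp5, the tartrate-resistant acid phosphatase of macrophages and osteoclasts, had -0.63 ± 0.20, and Manba, the beta-mannosidase, -0.53 ± 0.18. Of 25 further membrane proteins tested, 19 were negative (median -0.28, or -0.098 without WT 1) and 2 were lower at an unadjusted p under 0.05. These 2 were the tetraspanin Cd63 (-0.61 ± 0.21) and the peptide transporter Slc15a4 (-0.39 ± 0.14); the sialic acid transporter Slc17a5 had -0.49 ± 0.23.

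The V-ATPase was mixed. Of 17 further subunits, 13 were negative with a median of -0.16, and 0 were called by edgeR or DESeq2. At an unadjusted p under 0.05, 3 were lower and 2 higher, against 4.59% and 3.36% of all genes tested. Atp6v1c2, an isoform of the C subunit known from epithelia such as kidney, stood at 84.0, 66.9, 140 and 160 CPM in WT and at 178, 287, 134, 237 and 188 CPM in KO. KO 3 was the only KO library within the WT range. KO minus WT was 0.86 ± 0.28 in log2 (SE; edgeR adjusted p = 0.613), and 0.75 without WT 1. Atp6v0e2 was low, at 1.34 to 1.67 CPM in WT and 1.99 to 4.62 CPM in KO. Its groups did not overlap (log2 fold change 1.05 ± 0.33 SE, edgeR adjusted p = 0.613), as for 1.44% of all genes tested in that direction. With KO lower, this held for 2 of 34 further hydrolases and 1 of 25 further membrane proteins, against 1.26%. The proteolipid subunit Atp6v0c had -0.47 ± 0.16.

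Markers of several cell types varied between the same libraries. Over all genes tested, 4.59% were lower at an unadjusted p under 0.05, and DESeq2 called 0.358% of its genes. All 14 macrophage markers tested had negative log2 fold changes (median -0.62, or -0.58 without WT 1), and Cd14 and C1qc had an unadjusted p under 0.05. Cd14 was called by DESeq2 (adjusted p = 0.0461) and not by edgeR (adjusted p = 0.381). Summed macrophage markers stood at 531 to 835 CPM in WT and 276 to 702 CPM in KO. Their highest libraries were WT 1 (835) and WT 4 (826), and KO 5 (702) was highest among KO, as they were for Ctss and Lgmn. KO 3 had the lowest sum of macrophage markers (276) and was the lowest library for 7 members, among them Ctss, Lgmn, Npc2 and Ctsh, but the highest KO library for 10 others. KO 4 was the lowest library for 14 members. The members' median level relative to their mean over all libraries, on the log2(CPM + 0.5) scale, was -0.068 in KO 3, above KO 1, KO 2 and KO 4 (-0.31 to -0.14), whereas that of the macrophage markers was lowest in KO 3 (-0.92). The sum of macrophage markers in WT 4 nearly equalled that in WT 1. Of the 33 members, WT 1 was the highest library for 27 and WT 4 for 4. The part of macrophages in these values was not tested.

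Endothelial markers were also high in WT 1, which was the highest library for all 7 tested. Summed endothelial markers reached 140 CPM there, against 44.9 to 59.1 CPM in the other WT libraries and 24.5 to 62.6 CPM in KO. Their median log2 fold change was -0.82, or -0.20 without WT 1. Of the 7 tested, 2 were lower at an unadjusted p under 0.05, against 4.59% of all genes tested, and edgeR and DESeq2 called 0. Fibroblast markers (10 genes) summed to 815 to 1155 CPM in WT and 346 to 708 CPM in KO, and 9 of 10 had negative fold changes (median -0.81, or -0.51 without WT 1). Of the 10, 6 were lower at an unadjusted p under 0.05, against 4.59% of all genes tested, and edgeR called 0. DESeq2 called 2, against 0.358% of its genes. These were the collagen genes Col1a1 and Col1a2, whose KO libraries all lay below the WT libraries (1.26% of all genes tested). Milk protein genes (6 genes) summed to 16718, 3375, 5242 and 11830 CPM in WT 1 to WT 4 and to 2451 to 8027 CPM in KO, so WT 1 and WT 4 were highest, as for Lipa and Gm2a. All 6 had negative fold changes (median -3.98, or -3.34 without WT 1), 5 at an unadjusted p under 0.05. The edgeR test called 0 and DESeq2 called 3 (Csn1s2a, Csn2 and Lalba). Every KO library lay below every WT library for 1 milk protein gene and 1 macrophage marker. All 8 epithelial markers were negative (median -0.47, or -0.23 without WT 1). Of these 8, 2 were lower at an unadjusted p under 0.05, against 4.59% of all genes tested, and edgeR and DESeq2 called 0. Neutrophil markers summed to at most 18.0 CPM, and Ly6g, Mpo and Elane were at 0 counts in every library. Osteoclast markers (6 genes) summed to 131 to 255 CPM in WT and 143 to 354 CPM in KO, highest in KO 2. Nearly all of this sum was Itgb3, an integrin of other cell types too and the only one tested, with a log2 fold change of 0.10 (0.27 without WT 1), while Calcr was at 0 counts in every library. T and NK cell markers summed to 3.45 to 23.8 CPM and dendritic cell markers to 26.9 to 59.0 CPM, both highest in KO 5. Adipocyte markers summed to 4.88 to 31.6 CPM and were lowest in WT 1. The part of any of these markers in the lysosomal values was not tested.

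**Figure D4:**
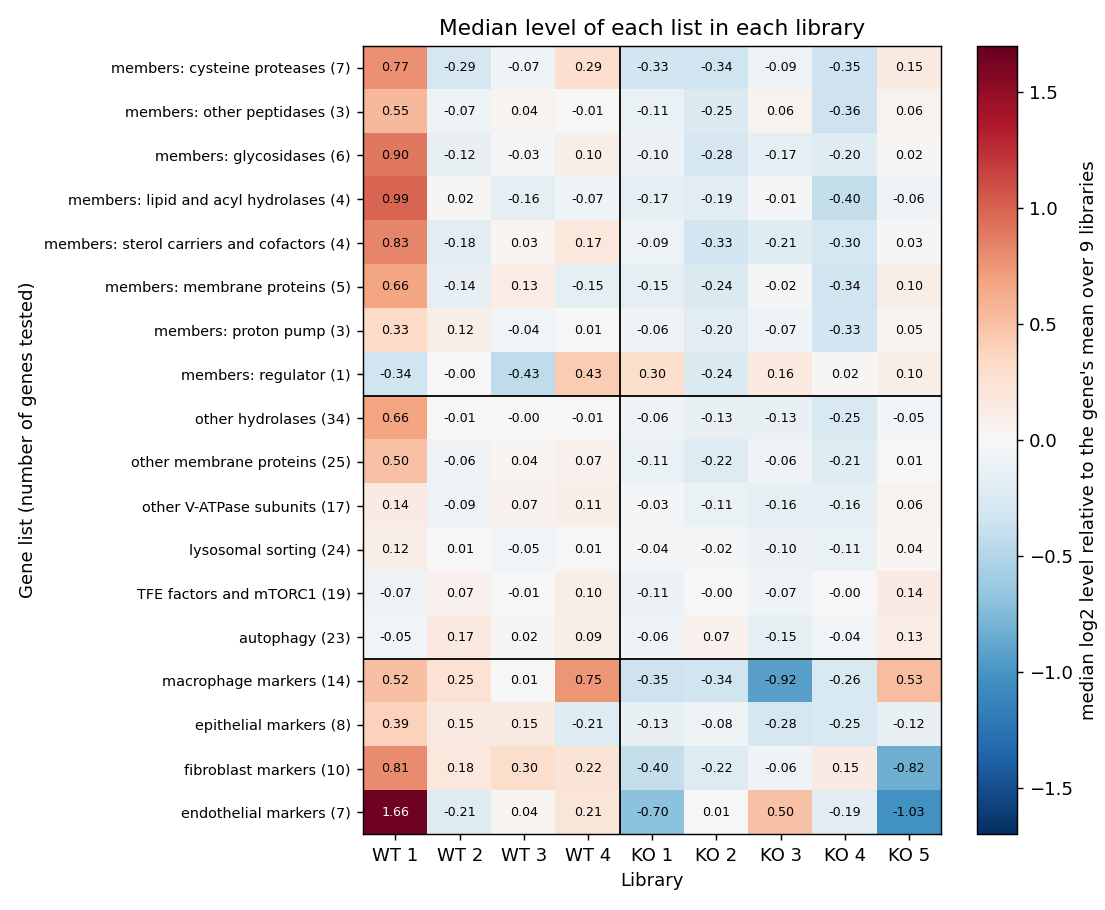
Columns, the 9 libraries; rows, gene lists with the number of genes tested; colour and printed value, the median over the list of each gene's log2(CPM + 0.5) minus its mean over all 9 libraries. The hydrolase and membrane rows are highest in WT 1 (0.50 to 0.99), the TFE and autophagy rows stay within 0.17 of 0 in every library, and the macrophage row is high in WT 1, WT 4 and KO 5.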

How the data were processed

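The submitters' processing notes list the build GRCm38 and the tools STAR 2.5.4a, Trimmomatic 0.36 and FastQC 0.11.5. Not given in the sources used here are their order and settings, the annotation release and how strand was treated. The authors deposited raw counts of fragments per gene for each tumor, not normalized. Rows without a gene were left out of totals and tests: 11.0% to 27.1% of fragments unmapped, 5.50% to 9.53% multimapped, 34.0% to 50.4% on no feature and 0.971% to 1.23% ambiguous. Of 55401 mouse gene rows, 55141 were matched to symbols in GENCODE M21 (GRCm38), and positions and exon lengths come from it. Promoter sequences come from RefSeq (GRCm38.p6).

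KO was compared with WT by edgeR 4.0.16 in R 4.3.3 (glmQLFit, glmQLFTest) with TMM factors, filterByExpr and genotype as the only term, two-sided, with Benjamini-Hochberg adjustment over all 14665 genes tested. The SE is the log2 fold change over the square root of F. Unadjusted p-values were used only to count genes. CPM are counts over tested totals times TMM factors. Alternatives were DESeq2 1.42.0, limma-voom (limma 3.58.1), other factors and filters, a replicate block, age, and libraries left out. The tests were tested on simulated data. The members, lists and alternatives were chosen with earlier results of these data known. All 33 members are reported by role; values in every library are given for members with an unadjusted p under 0.05, those without overlap and at least 1 per role. Up to 3 genes of each other list, those with the smallest p, are named. Counts limit precision: 0 counts in a library allow up to 0.482 to 0.680 CPM (3 counts, counting error only).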

Additional observations from a re-analysis of the deposited data

Results flagged for a closer look

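Among 66 groups (33 members in WT and in KO), 11 had 1 library far from the others by Dixon's ratio. For a single group of normal values chance flags about 1 in 20. The groups here share the same 9 libraries, so their flags are not independent and the count is not a test. In 6 of them this library was WT 1, at 198 CPM for Gaa, 88.1 for Gusb, 51.2 for Smpd1, 168 for Ppt1, 364 for Grn and 240 for Atp6ap1, each above the other 3 WT libraries. KO 3 was high for Glb1 (63.5 CPM) and Asah1 (103 CPM). KO 4 was high for Ctsk (16.1 CPM) and low for Ppt1 (70.2 CPM). KO 5 was high for Npc2 (103 CPM).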

How the results depend on the processing

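Under each of the 18 alternatives 0 members were called, and the smallest adjusted p of any member in any of them was 0.129. Over all genes, 13 were called, against 68 by DESeq2, 29 with no count filter, 6 among genes with a mean count of 50 or more (31 members tested) and 6 to 13 with 1 library left out. The members at an unadjusted p under 0.05 numbered 10, against 16 with a replicate block, 25 with age as a covariate, 1 without WT 1 and WT 4 and 3 to 18 with 1 library left out. The members' median log2 fold change of -0.42 was -0.071 without WT 1 and WT 4 and ran from -0.57 to -0.14 with 1 library left out. The cause was not tested. Directions turned for 8 members. Without WT 1 and WT 4 the log2 fold changes were 0.18 for Ctsc, 0.19 for Ctsl, 0.023 for Gaa, 0.061 for Gla, 0.0066 for Man2b1, 0.16 for Asah1, 0.035 for Npc1 and 0.022 for Cln3. Asah1 stood at 0.035 by limma-voom. With 1 library left out they ran from -0.37 to 0.018 for Gaa, -0.30 to 0.059 for Gla, -0.35 to 0.19 for Asah1, -0.28 to 0.065 for Npc1 and -0.31 to 0.021 for Cln3.

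The labels give no link between same-numbered samples other than the number. Their deviations correlated at -0.024, 0.38, 0.11 and 0.38 for numbers 1 to 4. Among KO 1 to KO 4, WT 1 correlated best with KO 3. By contrast, WT 2, WT 3 and WT 4 each correlated best with the KO library of the same number. Whether these samples were paired was not tested. The replicate block left 16 members lower at an unadjusted p under 0.05, against 5.72% of all genes in that fit, and a median of -0.37.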

Other observations

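Genes that deliver cargo to lysosomes, or sense nutrients on them, stood closer to the background of all genes. Of 24 genes of lysosomal sorting, 15 had negative log2 fold changes, with a median of -0.058. At an unadjusted p under 0.05, 1 of them was lower, against 4.59% of all genes tested. This was Cln6, an ER protein that helps hydrolases leave for the Golgi (-0.56 ± 0.17 SE, edgeR adjusted p = 0.596). Cln8, its partner in that step, had -0.32 ± 0.15. Igf2r, the large mannose 6-phosphate receptor, had -0.50 ± 0.23, and -0.14 without WT 1. Of 19 genes of the TFE family and of mTORC1 signalling at the lysosome, 11 were negative, with a median of -0.067, and 0 had an unadjusted p under 0.05; Tsc1 had 0.24 ± 0.12, Lamtor5 -0.32 ± 0.22 and Rragc -0.19 ± 0.13.

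Of 23 autophagy genes, 15 were negative, with a median of -0.081. At an unadjusted p under 0.05, 2 were lower (Map1lc3a and Gabarapl1), against 4.59% of all genes tested. The LC3 gene Map1lc3a stood at 47.2, 56.4, 53.7 and 51.3 CPM in WT and at 33.7, 24.8, 32.7, 35.6 and 48.9 CPM in KO, with KO 5 the only KO library within the WT range. Its log2 fold change was -0.57 ± 0.17 (SE; edgeR adjusted p = 0.596), and -0.62 without WT 1. For Map1lc3a WT 1 was the lowest WT library, so leaving it out says little on how firm the value is. Gabarapl1 had -0.32 ± 0.13 and Map1lc3b -0.19 ± 0.13. Of 6 cysteine protease inhibitors listed, 2 were tested. Cst3 (cystatin C) had -1.22 ± 0.41, and -0.64 without WT 1, and Cstb (cystatin B) -0.17 ± 0.20. At an unadjusted p under 0.05, 1 of these 2 was lower, against 4.59% of all genes tested. None of the genes of these lists was called by edgeR or DESeq2.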
